A study of Cricetulus griseus with 6 samples.

Results

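The genes of the proteasome were examined in CHO-T cells after silencing of *Xbp1*. With *Xbp1* siRNA, 14 of the 45 genes were lower than with control siRNA and 2 were higher, where 20.2% of all entries tested were lower and 20.2% were higher. Among entries of similar level 29.7% were lower. None of the 45 changed by as much as 1 on the log2 scale, and 5.19% of all entries passed the test with a change of at least 1. Of the 14 decreases, 8 were in subunits of the constitutive core, where 39.8% of entries at the core's level were lower. After quantile normalization of the libraries 7 of the 45 genes were lower, 3 of them in the core, and 5 were higher, 2 of them in the core. On that scale 18.5% of all entries were lower and 21.7% higher, and at the members' level 24.9% were lower and 29.2% higher. At the core's level 27.9% were then lower and 34.0% higher. *Psma2*, of the outer ring of the core, fell by 21.9%, and *Psmb1*, of the inner ring, fell by 21.5%. The largest increase was in *Psmb10*, an inducible catalytic subunit, which was at 148% of its control level. Some decreases of abundant subunits, such as that of *Psma7*, were lost or reversed after quantile normalization. Those of *Psma2*, *Psma3* and *Psmb1* passed on both scales, as described below.

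Genes were taken by name, as every entry whose symbol starts with Psma to Psmg followed by a number and whose expression averaged at least 0.1 FPKM over the 6 libraries. FPKM is the number of fragments on a gene, divided by the length of its exons in kilobases and by the size of the library. In all 46 entries matched, and 1 of them, *Psmb11*, a catalytic subunit of the thymus, was listed at 0 in all 6 libraries. The 45 others were among 14361 entries that passed the same limit, so no gene above 0 was lost to it. One of the 45, *Psmc3ip*, carries the prefix by name only and encodes a factor of meiotic recombination. A further entry, *Psma8*, is a testis-type relative of *Psma7*, and reads that the 2 genes share may have been split between them. Without these, 2 of 43 genes were higher and 13 were lower. *Psmd1* and *Psmd3*, subunits of the base and the lid, were not analysed here. *Psmd13*, of the lid, stands in the files under a gene number, LOC100772429, and therefore outside the rule. It had 102, 102 and 102 FPKM with control siRNA and 103, 104 and 109 with *Xbp1* siRNA, and did not pass the test (log2 fold change 0.05, limma adjusted p = 0.319). After quantile normalization it passed at 0.12 (adjusted p = 0.0165).

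CHO-T is a line of Chinese hamster ovary cells that received the mouse T-cadherin (*Cdh13*) cDNA by retroviral infection and puromycin selection, so both groups express the transgene from a viral element. Cells were harvested for RNA at 48 h after they received negative control siRNA (Ctrl, 3 libraries) or *Xbp1* siRNA (siXBP1, 3 libraries). *Xbp1* encodes a transcription factor of the unfolded protein response. The labels do not say that the libraries came from separate cultures. The study's methods state in general that experiments were repeated independently, without naming these libraries, so p-values may measure only the spread between them.

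*Xbp1* itself had 26.0, 26.2 and 28.4 FPKM with control siRNA and 2.18, 2.11 and 1.39 FPKM with *Xbp1* siRNA (log2 fold change −3.78, standard error 0.16, limma adjusted p = 5.61e-06), as the labels state. The FPKM of a library summed to between 646651 and 666267 with control siRNA and to between 593487 and 600986 with *Xbp1* siRNA, a mean of 91.1% of control. The steps between low values gave a relative depth of 94.0% to 116% of the first control library, and the reads behind single values are unknown. Among markers of other cell types, the defining genes *Ptprc* and *Cd3e* of blood, *Cdh5* of endothelium and *Fshr* of granulosa cells were at 0 in all libraries, as were the collagens *Col1a1* and *Col1a2*. The 6 mesenchymal markers summed to between 686 and 726 FPKM with control siRNA and to between 525 and 557 with *Xbp1* siRNA. Of these *Vim*, *Sparc* and *Col3a1* were lower and *Fn1* was higher. The 4 granulosa markers found summed to between 19.2 and 23.4 FPKM and to between 9.35 and 11.9, the 5 blood markers found to between 5.18 and 6.25 and to between 7.05 and 8.86, and the 4 endothelial markers to at most 0.412 FPKM. Of the granulosa markers only *Inhbb* was lower, from a mean of 15.8 to 4.49 FPKM, while *Amh* (2.69 and 2.95 FPKM) and *Inha* (2.63 and 3.52 FPKM) did not pass. Of the blood markers only *Cd68* was tested, and it was higher. The part of these differences in the results was not tested.

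The proteasome degrades proteins that carry ubiquitin chains. Its core particle is a barrel of stacked rings, the outer ones made of alpha subunits and the inner ones of beta subunits, of which *Psmb5*, *Psmb6* and *Psmb7* hold the active sites. A regulatory particle caps the barrel: its base unfolds the substrate with a ring of ATPases, and its lid removes the ubiquitin. Immune signals can replace the active subunits with inducible ones, other caps can replace the regulatory particle, and dedicated chaperones put the rings together. Proteins that fail to fold in the endoplasmic reticulum are exported and end in the proteasome.

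All 45 genes were expressed in every library. Their mean over the 6 libraries ran from 9.96 FPKM (*Psma8*) to 695 FPKM (*Psma7*), with a median of 90.3 FPKM. The groups stood at different levels on this length-scaled measure. Median levels were 175 FPKM in the alpha ring and 213 FPKM in the beta ring, 101 FPKM in the base, 77.6 FPKM in the lid, 65.9 FPKM among the activators, 35.2 FPKM among the assembly factors and 19.9 FPKM among the inducible subunits. Levels also differed within a group whose products are needed in equal number: the highest of the 14 constitutive core subunits, *Psma7*, was 10.9 times the lowest, *Psmb6*, and the highest of the 6 ATPases, *Psmc2*, was 2.90 times the lowest, *Psmc5*. Replicates of a gene were close. The coefficient of variation had a median of 4.89% over the genes with control siRNA and of 3.55% with *Xbp1* siRNA, and was largest for *Psma8*, at 17.9% and 14.8%.

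**Figure D1:**
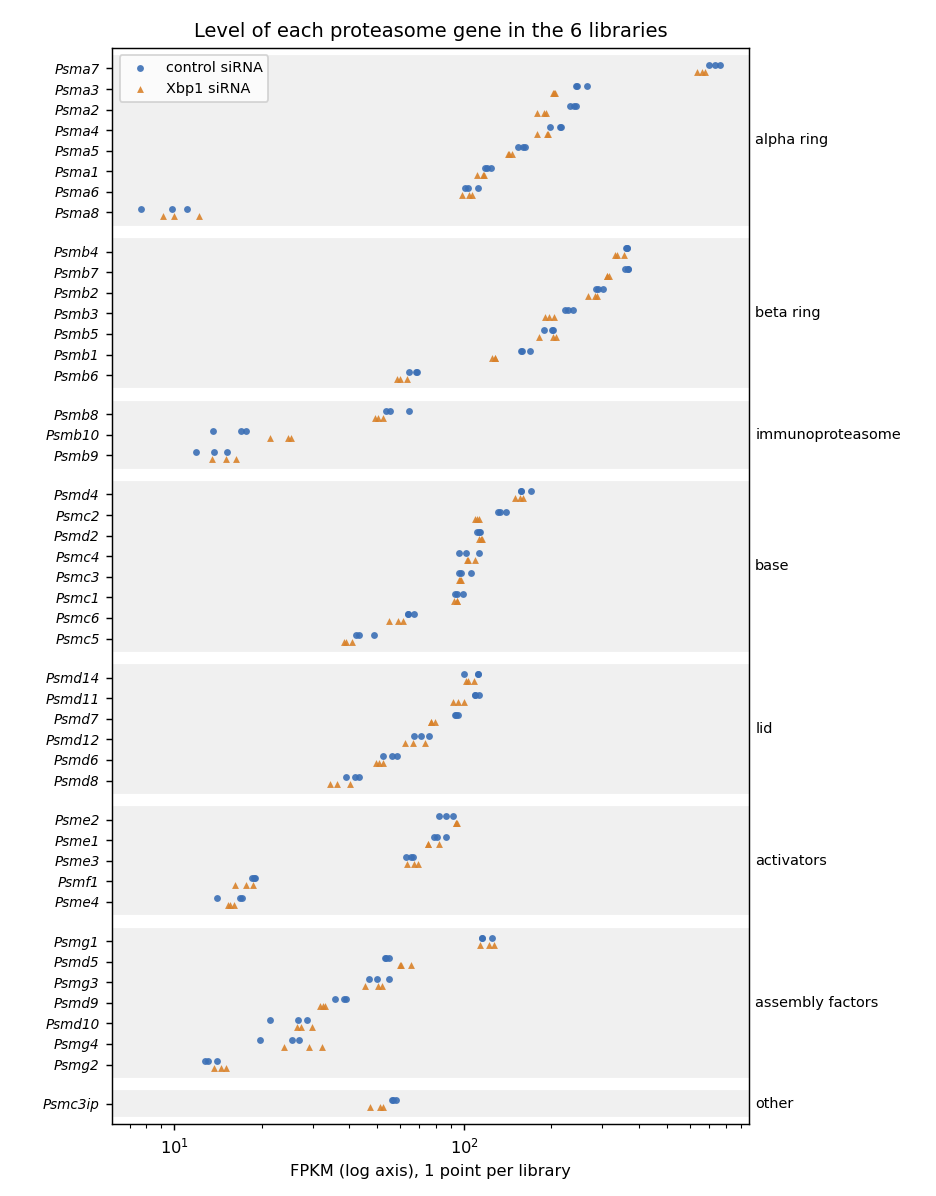
Level of the 45 genes in FPKM (log axis), with 1 point for each library, circles for control siRNA (n = 3) and triangles for *Xbp1* siRNA (n = 3), ordered by group and mean. The alpha and beta rings stand to the right of the assembly factors and the inducible subunits, and *Psma8*, at a mean of 9.96 FPKM, stands far below the rest of the alpha ring.

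Each gene was compared between the groups with limma on log2(FPKM + 0.1), fitted over all 14361 entries, and a gene passed at an adjusted p under 0.05. Fold changes are given on this scale, which understates the change of weak genes. Among the 45 genes, 2 were higher, where 20.2% of all entries were higher, and 14 were lower, where 20.2% of all entries were lower. The remaining 29 did not pass. None of the 45 passed with a log2 fold change of at least 1, where 5.19% of all entries did, and 23 had an unadjusted limma p under 0.05, as did 48.9% of all entries. The log2 fold change was below 0 for 33 of the genes and had a median of −0.08, against 0.01 over all entries. The libraries of the groups did not overlap in 20 genes that were lower with *Xbp1* siRNA (25.8% of all entries) and in 3 that were higher (26.1% of all entries).

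The genes are more abundant than most entries, and on the deposited scale entries at their level were more often lower than higher with *Xbp1* siRNA. Among the 7362 entries within the members' range of mean FPKM, 24.4% were higher and 29.7% lower, with a median of −0.02. Summed over all 45 genes, the FPKM were 5594, 5506 and 5494 with control siRNA and 5068, 5050 and 5109 with *Xbp1* siRNA. As a share of the FPKM of the library these sums were 0.840%, 0.841% and 0.850% with control siRNA and 0.849%, 0.851% and 0.850% with *Xbp1* siRNA. The sums did not overlap between the groups, while the shares did. When the libraries were quantile normalized, which gives all of them the same distribution, 5 genes were higher (*Psma7*, *Psmb2*, *Psmb10*, *Psmd5* and *Psme2*) and 7 lower (*Psma2*, *Psma3*, *Psmb1*, *Psmc2*, *Psmd7*, *Psmd9* and *Psmd11*), with a median of −0.01. On that scale 21.7% of all entries were higher and 18.5% lower, with a median of 0.02. Of the 7362 entries within the members' range, 29.2% were then higher and 24.9% lower, the reverse of the order on the deposited scale. In bulk RNA, fewer cells that express a gene and less of its RNA per cell cannot be told apart.

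**Figure D2:**
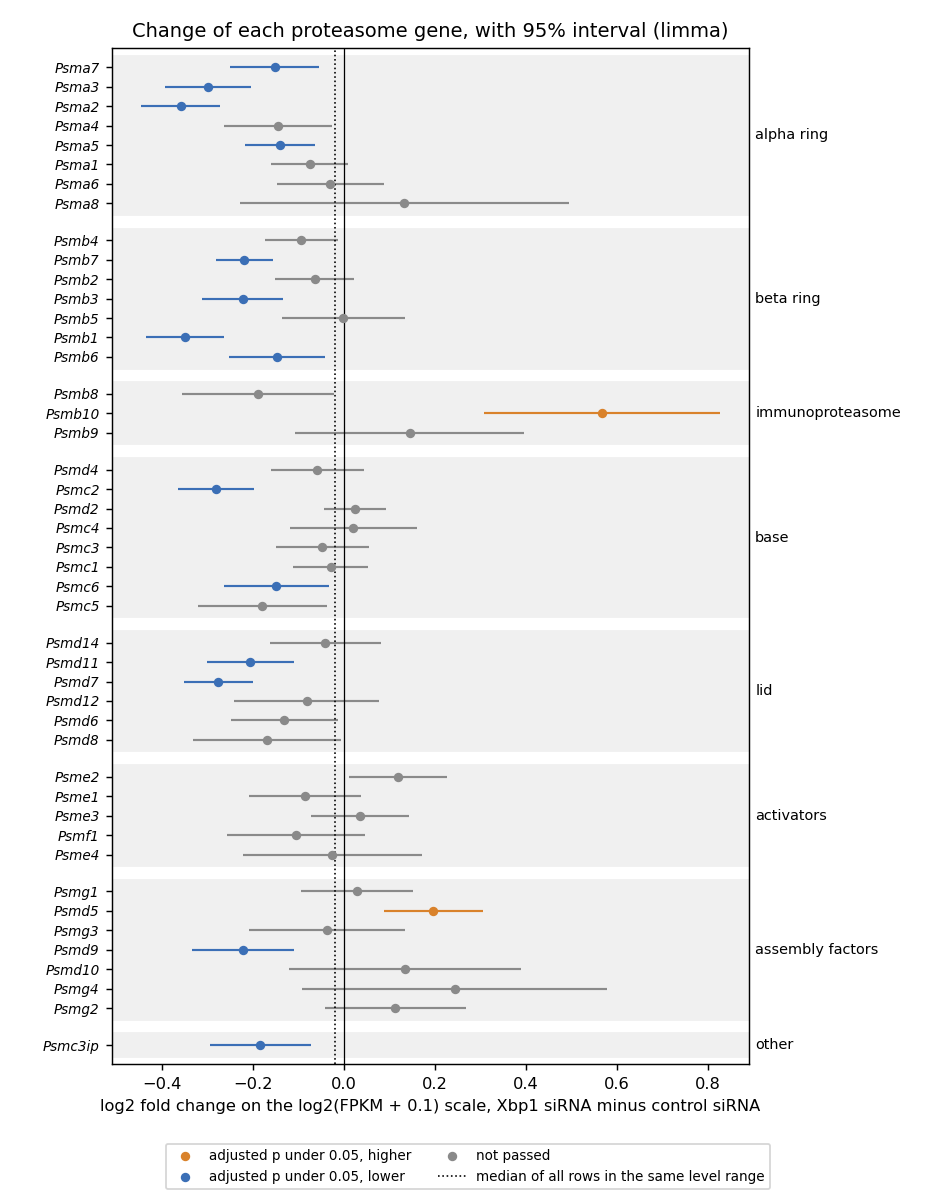
Log2 fold change of each gene, *Xbp1* siRNA minus control siRNA on the log2(FPKM + 0.1) scale, with the 95% interval from limma (3 against 3 libraries) and the genes in the order of the plot of levels. Blue genes passed as lower (14) and orange genes as higher (2), though *Psma7* passed as higher after quantile normalization, at 0.17. The dotted line marks the median of entries in the same range of level, −0.02.

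In the alpha ring, the gated outer ring of the core, 4 of 8 genes were lower on the deposited scale (*Psma2*, *Psma3*, *Psma5* and *Psma7*) and none was higher. Of all entries 20.2% were lower, and of those at the core's level 39.8%. The median log2 fold change was −0.14. After quantile normalization 2 were lower (*Psma2* and *Psma3*), 1 was higher (*Psma7*), and the median was −0.0067. On that scale 27.9% of entries at the core's level were lower and 34.0% higher. Summed over the ring, the FPKM lay between 1816 and 1828 with control siRNA and between 1596 and 1630 with *Xbp1* siRNA. As a share of the library this was 0.274%, 0.277% and 0.282% with control siRNA and 0.268%, 0.269% and 0.271% with *Xbp1* siRNA. *Psma2* changed most. It had 232, 244 and 240 FPKM with control siRNA and 188, 191 and 179 with *Xbp1* siRNA, so that every library with *Xbp1* siRNA lay below every control library (log2 fold change −0.36, standard error 0.04, limma adjusted p = 0.000263). The decrease was smaller after quantile normalization, at −0.23 (adjusted p = 0.00423), and still passed.

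*Psma7*, the most abundant of the 45 genes, had 763, 698 and 732 FPKM with control siRNA and 661, 635 and 677 with *Xbp1* siRNA. The groups did not overlap, and the log2 fold change was −0.15 on the deposited scale (standard error 0.04, limma adjusted p = 0.0235) but 0.17 after quantile normalization (adjusted p = 0.00191), so its direction rests on the scaling. On the deposited scale the call was also lost without control library 1 (adjusted p = 0.0591), without control library 3 (0.0589), without *Xbp1* siRNA library 1 (0.0555) and without *Xbp1* siRNA library 2 (0.0778), and without the intensity trend of the fit (0.0875). Its weak relative *Psma8* had 9.81, 7.68 and 11.1 FPKM with control siRNA and 9.96, 12.1 and 9.14 with *Xbp1* siRNA. Those values overlapped and *Psma8* did not pass (log2 fold change 0.13, 95% interval −0.23 to 0.50, adjusted p = 0.533).

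Of the other alpha subunits, *Psma3* fell by 18.7%, a log2 fold change of −0.30 that was −0.16 after quantile normalization (limma adjusted p = 0.0249). *Psma5* fell by 9.24% and no longer passed after quantile normalization (limma adjusted p = 0.405) or without the intensity trend of the fit (0.0588). *Psma1*, *Psma4* and *Psma6* did not pass, with log2 fold changes of −0.07, −0.14 and −0.03. *Psma4* passed without control library 1 (limma adjusted p = 0.0239) and with a minimum mean of 1 FPKM (0.0477). Quantile normalization turned *Psma6* to 0.05, which did not pass either.

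In the beta ring, the inner ring with the proteolytic sites, 4 of 7 constitutive genes were lower (*Psmb1*, *Psmb3*, *Psmb6* and *Psmb7*) and none was higher. Of all entries 20.2% were lower, and of those at the core's level 39.8%. The median log2 fold change was −0.15. After quantile normalization 1 was lower (*Psmb1*), 1 was higher (*Psmb2*), and the median was −0.067. At the core's level 27.9% of entries were then lower and 34.0% higher. Summed over the ring, the FPKM lay between 1652 and 1707 with control siRNA and between 1488 and 1532 with *Xbp1* siRNA. As a share of the library this was 0.256%, 0.254% and 0.256% with control siRNA and 0.256%, 0.251% and 0.254% with *Xbp1* siRNA, which overlapped. *Psmb1*, a structural subunit without an active site, had 168, 157 and 159 FPKM with control siRNA and 124, 128 and 127 with *Xbp1* siRNA. The groups were well apart (log2 fold change −0.35, standard error 0.04, limma adjusted p = 0.000281), also after quantile normalization (−0.25, adjusted p = 0.000487). *Psmb4*, the most abundant gene of the ring and another structural subunit, had 363, 364 and 364 FPKM with control siRNA and 356, 337 and 331 with *Xbp1* siRNA. The groups did not overlap, but *Psmb4* did not pass (log2 fold change −0.09, adjusted p = 0.0646). It passed without *Xbp1* siRNA library 1 (adjusted p = 0.0229), and quantile normalization turned it to 0.04.

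Of the 3 constitutive subunits that hold the active sites, *Psmb6* and *Psmb7* passed as lower on the deposited scale and *Psmb5* did not pass. After quantile normalization none of the 3 passed, and differences between them were not tested. *Psmb5*, of the chymotrypsin-like site, had 202, 201 and 188 FPKM with control siRNA and 208, 181 and 203 with *Xbp1* siRNA. Its values overlapped fully (95% interval −0.14 to 0.13, limma adjusted p = 0.995), and after quantile normalization it was at 0.14 (adjusted p = 0.0777). *Psmb7*, of the trypsin-like site, had 367, 367 and 359 FPKM with control siRNA and 312, 317 and 311 with *Xbp1* siRNA. It was lower without overlap on the deposited scale (log2 fold change −0.22, standard error 0.03, adjusted p = 0.000615) and did not pass after quantile normalization (−0.07, adjusted p = 0.0771). *Psmb6*, of the caspase-like site and the least abundant gene of the ring, had 68.2, 64.7 and 68.6 FPKM with control siRNA and 58.6, 60.0 and 63.6 with *Xbp1* siRNA. The groups did not overlap and *Psmb6* passed (log2 fold change −0.15, adjusted p = 0.0352), though not after quantile normalization (adjusted p = 0.182), without the intensity trend (0.0900) or without control library 1 (0.0874), control library 3 (0.0998), *Xbp1* siRNA library 1 (0.106) or *Xbp1* siRNA library 2 (0.0955). *Psmb3* fell by 14.3% and did not pass after quantile normalization (limma adjusted p = 0.149). *Psmb2* did not pass on the deposited scale (−0.06, adjusted p = 0.218) and passed in the other direction after quantile normalization (0.09, adjusted p = 0.0400).

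Over the 14 constitutive core subunits, that is both rings without *Psma8*, 8 were lower, none was higher, and 11 were lower without overlap of the libraries. Among the 1712 entries within their range of level, 39.8% were lower, 22.3% were higher, and 44.5% were lower without overlap. The median log2 fold change was −0.15 over the subunits and −0.07 over those entries. After quantile normalization 3 of the 14 were lower (*Psma2*, *Psma3* and *Psmb1*) and 2 higher (*Psma7* and *Psmb2*), where 27.9% of the entries at the core's level were lower and 34.0% higher. The share of the library's FPKM that the 14 genes made up was 0.529%, 0.531% and 0.536% with control siRNA and 0.523%, 0.518% and 0.524% with *Xbp1* siRNA.

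The inducible subunits, which take the place of *Psmb5*, *Psmb6* and *Psmb7* in the immunoproteasome, did not move as 1 group. *Psmb10*, the counterpart of *Psmb7*, had 16.9, 17.7 and 13.6 FPKM with control siRNA and 24.7, 21.4 and 25.2 with *Xbp1* siRNA. Every library with *Xbp1* siRNA was above every control library (log2 fold change 0.57, standard error 0.11, limma adjusted p = 0.00536), and the increase also passed after quantile normalization (0.59, adjusted p = 0.00476). Omitting 1 library at a time gave values from 0.45 to 0.64, and *Psmb10* was the only one of the 45 genes with a change above 0.5 on the log2 scale. *Psmb9*, the counterpart of *Psmb6*, had 13.7, 15.2 and 11.8 FPKM with control siRNA and 15.0, 16.3 and 13.5 with *Xbp1* siRNA. The groups overlapped (log2 fold change 0.15, 95% interval −0.11 to 0.40, adjusted p = 0.327). *Psmb8*, the counterpart of *Psmb5* and the most abundant of the 3, had 64.6, 53.8 and 55.3 FPKM with control siRNA and 50.2, 49.3 and 52.5 with *Xbp1* siRNA. It was lower in every library with *Xbp1* siRNA but did not pass (log2 fold change −0.19, adjusted p = 0.0721), and it passed without control library 2 (adjusted p = 0.0493). In the RefSeq gene table of assembly CriGri-PICRH-1.0, *Psmb8* and *Psmb9* lie close together, with *Tpt1* and the peptide transporter gene *Tap1* listed between them.

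Each inducible subunit was set against its constitutive counterpart within a library. *Psmb10* stood at 4.62%, 4.82% and 3.78% of *Psmb7* with control siRNA and at 7.92%, 6.74% and 8.11% with *Xbp1* siRNA, without overlap. The difference of the log2 ratios was 0.78, and an exact two-sided permutation test gave p = 0.1, the smallest that 3 against 3 libraries allow. *Psmb9* stood at 20.0%, 23.4% and 17.3% of *Psmb6* with control siRNA and at 25.7%, 27.2% and 21.3% with *Xbp1* siRNA (difference of log2 ratios 0.29, exact p = 0.2). *Psmb8* stood at 32.0%, 26.8% and 29.4% of *Psmb5* with control siRNA and at 24.1%, 27.2% and 25.9% with *Xbp1* siRNA (difference −0.19, exact p = 0.2). Both of these overlapped between the groups. Adjusted over the 3 ratios, p was 0.2 for each. With 3 against 3 libraries the exact permutation test cannot give a p below 0.1, so it could not have passed any ratio.

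**Figure D3:**
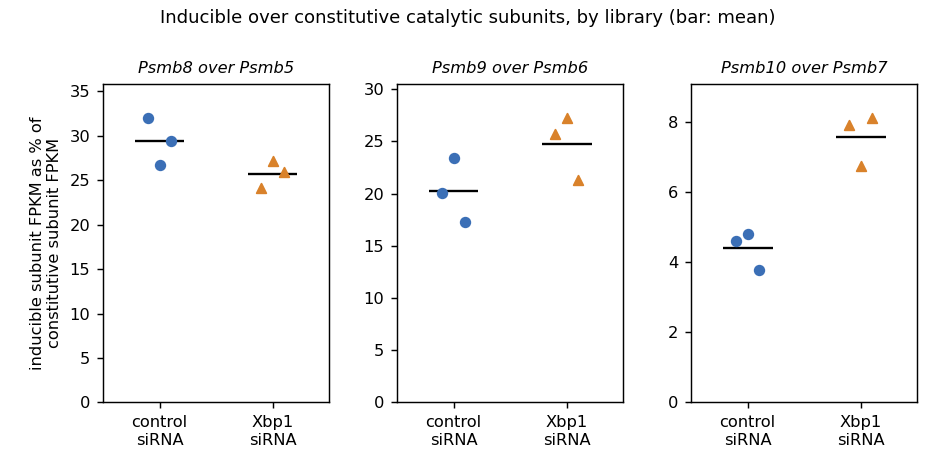
FPKM of each inducible subunit as a percentage of the constitutive subunit it replaces, with 1 point for each library, circles for control siRNA and triangles for *Xbp1* siRNA, and a bar at the mean of 3 libraries. *Psmb10* over *Psmb7* is separated, with means of 4.41% and 7.59%, while the other ratios overlap between the groups.

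In the base of the regulatory particle, 2 of 8 genes were lower (*Psmc2* and *Psmc6*) and none was higher. Of all entries 20.2% were lower, and of those at the members' level 29.7%. The median log2 fold change was −0.05, which quantile normalization turned to 0.04. *Psmc2* and *Psmc6* are both ATPases of the unfolding ring. *Psmc2* had 133, 139 and 131 FPKM with control siRNA and 110, 113 and 109 with *Xbp1* siRNA. The groups did not overlap (log2 fold change −0.28, standard error 0.04, limma adjusted p = 0.000669), and *Psmc2* passed after quantile normalization too (−0.21, adjusted p = 0.00166). *Psmc6* fell by 9.72% (adjusted p = 0.0464), close to the limit. *Psmc6* did not pass after quantile normalization (adjusted p = 0.183), nor without control library 1 (0.0694), 2 (0.137) or 3 (0.0846), nor without *Xbp1* siRNA library 1 (0.118) or 3 (0.0915). It also failed without the intensity trend (limma adjusted p = 0.108) and with no filter on low values (0.0546). *Psmc5*, the least abundant ATPase, had 42.4, 43.4 and 48.8 FPKM with control siRNA and 39.1, 41.0 and 38.5 with *Xbp1* siRNA. The groups did not overlap, and *Psmc5* fell just short of passing (log2 fold change −0.18, adjusted p = 0.0507). It passed without control library 1 (limma adjusted p = 0.0368), with median-ratio scaling (0.0483) and with a minimum mean of 1 FPKM (0.0433). After quantile normalization it did not pass (−0.13, limma adjusted p = 0.148).

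The non-ATPase genes of the base, *Psmd2* and *Psmd4*, did not pass. *Psmd4*, a ubiquitin receptor and the most abundant gene of the base, had 171, 157 and 157 FPKM with control siRNA and 156, 150 and 159 with *Xbp1* siRNA, which overlapped (log2 fold change −0.06, 95% interval −0.16 to 0.05, limma adjusted p = 0.343). *Psmd2*, the scaffold of the base, had a narrow interval (0.03, 95% interval −0.04 to 0.09). Quantile normalization turned *Psmd4* to 0.05. The ATPases *Psmc1*, *Psmc3* and *Psmc4* lay between −0.05 and 0.02 and did not pass.

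In the lid, 2 of 6 genes were lower (*Psmd7* and *Psmd11*), none was higher, and all 6 were below 0. Of all entries 20.2% were lower, and of those at the members' level 29.7%. The median log2 fold change was −0.15, and −0.098 after quantile normalization, where the same 2 genes were lower. *Psmd13*, a lid gene outside the naming rule, is not in these counts. It was at 0.05 on the deposited scale and passed as higher after quantile normalization (0.12, limma adjusted p = 0.0165). *Psmd7*, the inactive partner of the deubiquitinating subunit, had 94.9, 93.3 and 93.9 FPKM with control siRNA and 76.7, 79.6 and 76.8 with *Xbp1* siRNA. The groups were far apart (log2 fold change −0.28, standard error 0.03, limma adjusted p = 0.000477), and *Psmd7* passed after quantile normalization (−0.21, adjusted p = 0.00184). *Psmd14*, the deubiquitinating subunit itself and the most abundant gene of the lid, had 99.6, 111 and 111 FPKM with control siRNA and 102, 108 and 103 with *Xbp1* siRNA. These values overlapped (log2 fold change −0.04, 95% interval −0.16 to 0.08, adjusted p = 0.588), and quantile normalization turned the value to 0.03. *Psmd8*, the least abundant gene of the lid, had 43.5, 39.1 and 42.1 FPKM with control siRNA and 36.3, 40.3 and 34.3 with *Xbp1* siRNA. It overlapped and did not pass (−0.17, adjusted p = 0.0927) except without *Xbp1* siRNA library 2 (adjusted p = 0.0296). *Psmd11* fell by 13.2%, a log2 fold change of −0.21, and after quantile normalization it passed close to the limit at −0.12 (adjusted p = 0.0439). *Psmd6* and *Psmd12* did not pass, and *Psmd6* passed without control library 3 (limma adjusted p = 0.0259).

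None of the 5 activators and inhibitors of the core passed, and their median log2 fold change was −0.02. *Psme1* and *Psme2* encode the subunits of the cap that immune signals induce. *Psme2* had 86.4, 91.7 and 81.6 FPKM with control siRNA and 93.8, 94.2 and 94.0 with *Xbp1* siRNA. It was above control in every library, the only activator without overlap, but did not pass (log2 fold change 0.12, limma adjusted p = 0.0748). It passed after quantile normalization (0.20, adjusted p = 0.00892) and without control library 2 (adjusted p = 0.0259). Its partner *Psme1* had 80.4, 78.8 and 86.7 FPKM with control siRNA and 81.8, 74.9 and 75.1 with *Xbp1* siRNA, which overlapped (−0.08, 95% interval −0.21 to 0.04, adjusted p = 0.245). In the gene table of assembly CriGri-PICRH-1.0 the partners lie with 1 protein-coding gene, *Emc9*, between them.

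The other 3 genes of this group did not pass. *Psme3*, of the nuclear cap, had 65.4, 66.7 and 63.0 FPKM with control siRNA and 63.3, 69.4 and 67.4 with *Xbp1* siRNA (log2 fold change 0.04, limma adjusted p = 0.567). *Psme4*, a large single-chain activator, had 14.0, 16.8 and 17.1 FPKM and then 15.3, 16.1 and 15.5 (−0.02, adjusted p = 0.846). *Psmf1*, an inhibitor of the core, had 18.9, 19.0 and 18.6 FPKM and then 18.7, 16.2 and 17.7 (−0.11, adjusted p = 0.241). The values of all 3 overlapped between the groups. Summed over the 5 genes, the FPKM lay between 265 and 273 with control siRNA and between 270 and 273 with *Xbp1* siRNA.

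Among the 7 assembly factors, 1 was higher (*Psmd5*), 1 was lower (*Psmd9*) and 5 did not pass, with a median log2 fold change of 0.11. Of all entries 20.2% were higher and 20.2% lower. *Psmd5* and *Psmd9* both encode chaperones of the base. *Psmd5* had 55.1, 53.2 and 53.8 FPKM with control siRNA and 60.4, 65.8 and 59.8 with *Xbp1* siRNA, without overlap (log2 fold change 0.20, standard error 0.05, limma adjusted p = 0.0120). *Psmd9* had 35.9, 39.3 and 38.5 FPKM with control siRNA and 32.5, 33.1 and 31.8 with *Xbp1* siRNA, also without overlap (−0.22, standard error 0.05, adjusted p = 0.00849). Both passed after quantile normalization, at 0.26 and −0.18, in the same directions. Another chaperone of the base, *Psmd10* (gankyrin), had 26.7, 21.4 and 28.7 FPKM with control siRNA and 30.0, 27.4 and 26.4 with *Xbp1* siRNA, which overlapped (0.14, 95% interval −0.12 to 0.39, adjusted p = 0.366).

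The chaperones that build the alpha ring, *Psmg1* to *Psmg4*, did not pass. *Psmg1* had 115, 115 and 125 FPKM with control siRNA and 114, 122 and 127 with *Xbp1* siRNA (log2 fold change 0.03, limma adjusted p = 0.686). Its partner *Psmg2* had 13.1, 12.8 and 14.1 FPKM and then 15.1, 13.7 and 14.4 (0.11, adjusted p = 0.219). *Psmg1* was thus the most abundant and *Psmg2* the least abundant of the assembly factors, and the mean of *Psmg1* was 8.63 times that of *Psmg2*. *Psmg3* had 55.0, 50.0 and 46.8 FPKM with control siRNA and 51.9, 45.5 and 50.4 with *Xbp1* siRNA (−0.04, adjusted p = 0.722), and its sign turned after quantile normalization, to 0.02. *Psmg4*, the partner of *Psmg3*, had 27.0, 19.7 and 25.5 FPKM and then 32.3, 23.9 and 29.2 (0.24, 95% interval −0.09 to 0.58, adjusted p = 0.219). All 4 overlapped between the groups.

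By role, 8 of 14 constitutive core subunits and 4 of 14 subunits of the base and lid were lower and none was higher. Of the 15 inducible subunits, activators and assembly factors 1 was lower and 2 were higher. The median log2 fold changes on the deposited scale were −0.15, −0.11 and 0.04. Of all entries 20.2% were lower and 20.2% higher. At the members' level 29.7% were lower and 24.4% higher, and at the core's level 39.8% were lower. *Pomp*, a maturation factor of the core given below, and *Psmd13* of the lid are outside the naming rule and in none of these counts. After quantile normalization 3 core subunits were lower and 2 higher, and 3 subunits of the base and lid were lower and none higher. Of the 15 others 1 was then lower and 3 were higher. The medians were then −0.022, −0.047 and 0.11. On that scale 18.5% of all entries were lower and 21.7% higher. The difference between these roles was not tested. The roles also differ in level, and across the 45 genes the log2 fold change was related to the log2 of the mean FPKM with r = −0.50 and rho = −0.42. This is a description over genes that share the same 6 libraries and their scaling. Over the 14 core subunits alone the values were r = −0.09 and rho = −0.21, and over the 7362 entries in the members' range r = −0.10 and rho = −0.12. The remaining gene, *Psmc3ip*, fell by 11.9% on the deposited scale (limma adjusted p = 0.0185), without passing after quantile normalization (adjusted p = 0.0595), without the intensity trend (0.0552) or without control library 1 (0.0532).

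**Figure D4:**
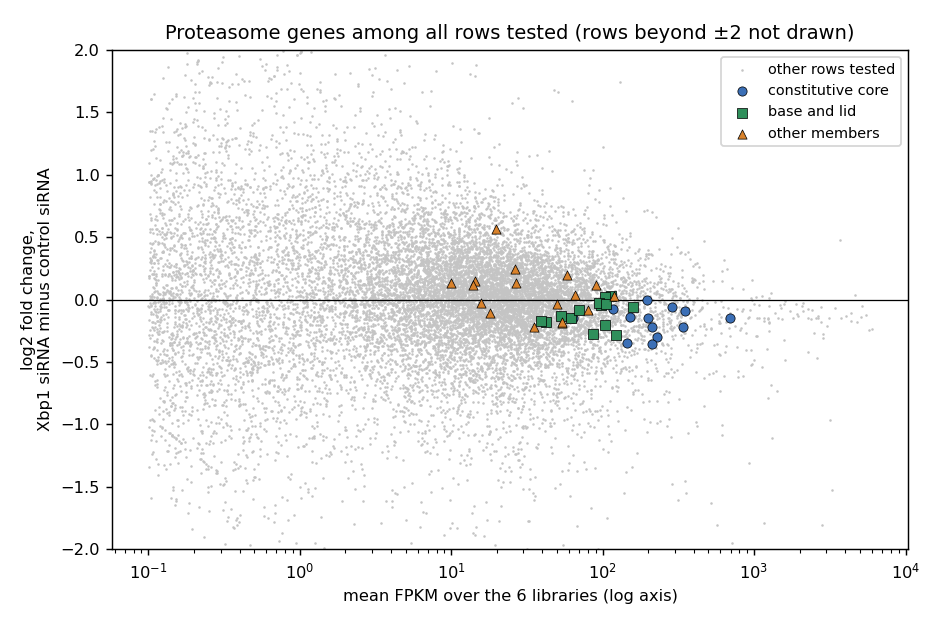
Log2 fold change of each entry, *Xbp1* siRNA minus control siRNA (3 libraries each, FPKM as deposited), against its mean FPKM over the 6 libraries (log axis). Grey points are all other entries tested. The core subunits (circles) lie at high levels and at or below 0, with a median of −0.15 (−0.02 after quantile normalization), and the members other than core, base and lid (triangles) lie on both sides of 0.

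**Figure D5:**
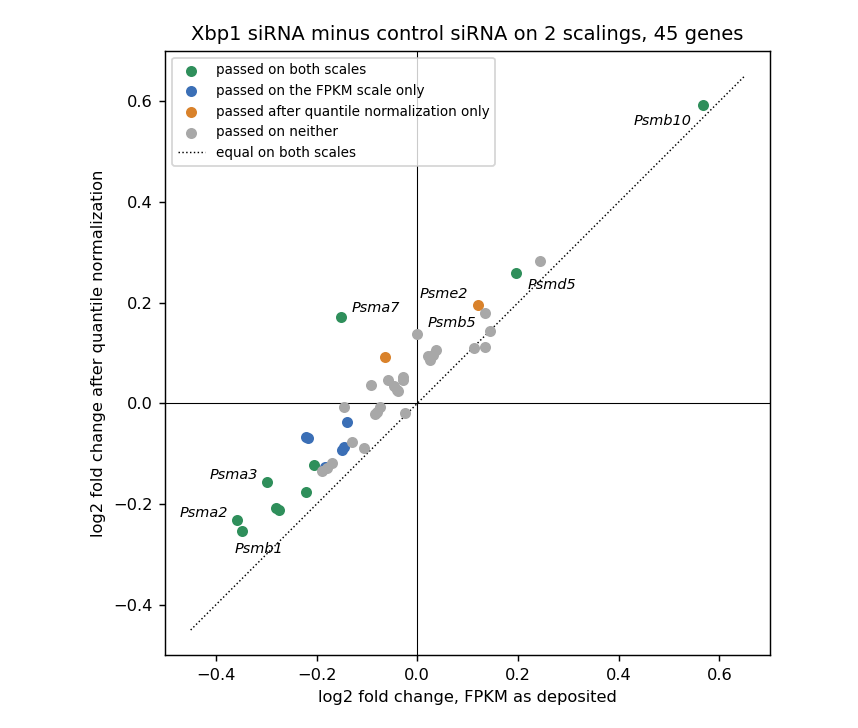
Log2 fold change of the 45 genes, *Xbp1* siRNA minus control siRNA, on FPKM as deposited (horizontal) and after quantile normalization (vertical), coloured by the scale on which limma gave an adjusted p under 0.05. Most points lie above the dotted line of equal values, and *Psma7* passed on both scales in opposite directions, at −0.15 and 0.17.

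The change of scale moved most genes upwards, as the plot of both scalings shows. The calls that kept their direction on both scales were *Psmb10* and *Psmd5* as higher and *Psma2*, *Psma3*, *Psmb1*, *Psmc2*, *Psmd7*, *Psmd9* and *Psmd11* as lower. These 9 of the 16 calls also held without any 1 library and under the other settings tried.

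Further genes of the pathway were taken from a list of 34 names, of which 29 were found and 28 were expressed. Of these 3 were higher and 12 lower, against 20.2% and 20.2% of all entries, with a median log2 fold change of −0.09 and none at a log2 fold change of 1 (17 had an unadjusted limma p under 0.05, as did 48.9% of all entries). After quantile normalization 6 were higher and 8 lower, where 21.7% of all entries were higher and 18.5% lower. *Pomp*, the maturation factor of the core, had 366, 371 and 347 FPKM with control siRNA and 312, 315 and 302 with *Xbp1* siRNA. It was lower without overlap (−0.22, limma adjusted p = 0.00211), though not after quantile normalization (−0.07, adjusted p = 0.104). *Adrm1*, a ubiquitin receptor of the base named outside the Psm series, had 229, 201 and 215 FPKM and then 214, 191 and 201. It overlapped and did not pass (−0.09, adjusted p = 0.278), and quantile normalization turned it to 0.05.

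Of the 7 regulators of proteasome genes, 4 were lower and 1 higher, where 20.2% of all entries were lower and 20.2% higher. *Nfe2l1* (NRF1), the transcription factor known to raise proteasome genes when the proteasome is inhibited, had 211, 201 and 198 FPKM with control siRNA and 158, 159 and 162 with *Xbp1* siRNA. The groups were far apart (log2 fold change −0.35, standard error 0.03, limma adjusted p = 0.000181), also after quantile normalization (−0.23). Its relative *Nfe2l2* (NRF2), the factor of the oxidative stress response, fell by 26.9%. The subunits of the factor NF-Y moved in different directions. *Nfya* had 39.0, 44.3 and 40.9 FPKM with control siRNA and 28.1, 26.8 and 29.6 with *Xbp1* siRNA (−0.55, adjusted p = 0.000360), and *Nfyb* fell by 24.4%. *Nfyc* had 27.0, 24.7 and 25.7 FPKM and then 34.0, 36.9 and 32.8 (0.42, adjusted p = 0.00112). All of these kept their calls after quantile normalization. *Vcp* and *Ngly1*, which act on NRF1 as it leaves the endoplasmic reticulum, did not pass.

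Among the genes of ubiquitin and its activation, *Ubb*, which encodes a chain of ubiquitin units, fell by 19.7%. *Rps27a*, which encodes ubiquitin fused to a ribosomal protein, was lower on the deposited scale (log2 fold change −0.13, limma adjusted p = 0.0270) and higher after quantile normalization (0.15, adjusted p = 0.00261), and on the deposited scale it did not pass without control library 1 (0.0688) or 2 (0.0776) or without *Xbp1* siRNA library 1 (0.0837) or 2 (0.0904), without the intensity trend (0.0987) or with no filter on low values (0.0664). The ubiquitin-activating enzymes *Uba1* and *Uba6* did not pass.

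Of the 12 factors that bind the proteasome or carry substrates to it, 2 were higher, 3 were lower and 7 did not pass, where 20.2% of all entries were higher and 20.2% lower. *Fbxo7*, a ubiquitin ligase subunit that binds the proteasome inhibitor encoded by *Psmf1*, had 18.0, 15.6 and 15.6 FPKM with control siRNA and 22.8, 22.6 and 21.9 with *Xbp1* siRNA (log2 fold change 0.45, limma adjusted p = 0.00161). *Ubqln4*, a shuttle factor, had 103, 102 and 98.1 FPKM and then 121, 119 and 120 (0.25, adjusted p = 0.000883). *Zfand5*, a factor that stimulates the proteasome, had 18.3, 18.8 and 18.7 FPKM and then 11.5, 13.2 and 13.9 (−0.53, adjusted p = 0.00124). None of the 3 overlapped between the groups, and all 3 passed in the same direction after quantile normalization.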

How the data were processed

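Stranded mRNA libraries of CHO-T cells were sequenced, 3 after control siRNA and 3 after *Xbp1* siRNA. Per the submitters' processing notes, HISAT2 2.1.0 and Cuffdiff 2.2.1 were used; the genome build is not given in the sources used here. The authors deposited FPKM values for 27873 entries named by gene symbol. FPKM are not counts, and DESeq2, which the methods name, needs counts. The log2 of FPKM + 0.1 was therefore fitted in limma 3.58.1 under R 4.3.3 (lmFit, eBayes with an intensity trend) over the 14361 entries with a mean FPKM of at least 0.1, with Benjamini-Hochberg adjustment over all of them. The fit was tested on simulated data. Ratios and counts were computed with Python 3.11.15, numpy 2.4.6, pandas 2.3.3 and scipy 1.17.1. Depth in reads was not stated, and the number of libraries limits the precision.

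The genes, their groups and the pathway list were chosen with earlier results of these data known. Named with values were the inducible subunits and their counterparts, all activators and assembly factors, the members with the highest and lowest level and the largest rise and fall that passed in each ring, the base and the lid, members past 0.5 on the log2 scale, and of the pathway list *Pomp*, *Adrm1*, *Nfe2l1* and the 3 largest rises and falls. One gene that this rule selects is not reported here. Other genes named beside a count were chosen after their values were seen. Replicate numbers were not taken to pair libraries, since nothing in the labels ties them and the deviations of same-numbered libraries had correlations of −0.03, −0.03 and −0.01. Settings tried in turn were a pseudocount of 1 or 0.01, no filter or a minimum mean of 1 FPKM, median-ratio scaling, quantile normalization, eBayes without trend, the replicate number as a block, and leaving out each library in turn. The comparisons with entries of similar level, and the counts without *Psmc3ip* and *Psma8*, were added after seeing the data. All 45 symbols were found in the RefSeq gene table of assembly CriGri-PICRH-1.0, used for names and neighbours only. A count of sequence motifs in promoters was planned and was not run, since sequences were not used here.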

Additional observations from a re-analysis of the deposited data

How the results depend on the processing

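Of the 16 calls, 9 kept their direction and passed under all 14 alternatives. No member reached a log2 fold change of 1 under any of them. Pseudocounts, filters and median-ratio scaling kept the members at 13 to 16 lower and 2 higher. Median-ratio scaling hardly differed from the main fit. The median FPKM over all entries tested already lay between 10.7 and 10.9 in the libraries, and the members' median moved only from −0.081 to −0.084. Without the intensity trend 9 members and 5 core subunits were lower. Quantile normalization gave 5 members higher and 7 lower, 3 core subunits lower and 6 pathway genes higher. It moved the medians to −0.0061 for all members, −0.022 for the core, −0.0067 for the alpha ring, −0.067 for the beta ring, 0.041 for the base and −0.098 for the lid. It turned *Psma7* to 0.17, *Psmb5* to 0.14, *Psmb2* to 0.093, *Psmc1* to 0.053, *Psmd4* to 0.047, *Psma6* to 0.046, *Psmb4* to 0.036, *Psmc3* to 0.035, *Psmd14* to 0.027, *Psmg3* to 0.024, *Adrm1* to 0.051 and *Rps27a* to 0.15. The cause was not tested.

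Leaving out each library in turn gave 12 to 14 members lower and 2 to 3 higher, and 6 to 8 core subunits lower. The medians then ran from −0.16 to −0.12 for the alpha ring, from −0.18 to −0.12 for the beta ring, from −0.076 (without control library 2) to −0.0095 (without control library 1) for the base, from −0.098 (without control library 1) to 0.014 (without control library 2) for the activators and from 0.012 (without control library 2) to 0.15 for the assembly factors. Members that did not pass and changed sign were *Psmb5* (−0.041 to 0.060), *Psmg3* (−0.092 to 0.024), *Psma6* (−0.060 to 0.015), *Psma8* (−0.011 to 0.25), *Psme4* (−0.12 to 0.027), *Psmc4* (−0.028 to 0.083) and *Psmg1* (−0.0040 to 0.074).

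With the replicate number as a block, 3 members were higher and 15 lower, *Psma4* (limma adjusted p = 0.0119) and *Psmg4* (limma adjusted p = 0.0102) being added. The call of *Rps27a* was lost with the block (limma adjusted p = 0.0558). Over all entries the block gave 2767 higher and 2875 lower, against 2898 and 2904. Libraries with the same number did not deviate together, and no library correlated best with its own number.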
